A study of Danio rerio with 80 samples.

Results

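The zebrafish genes ponzr3 (ENSDARG00000088589) and ponzr4 (ENSDARG00000087440) are 2 of 32520 genes counted, and 2 of the 11 entries that belong to the PLAC8 family. They were chosen by their values: both were among the largest falls in embryos exposed to 8-methylbenzo[a]pyrene (8-MBaP) at 72 hours post-fertilization (hpf). Every 72 hpf comparison of ponzr3 or ponzr4 that holds 8-MBaP is therefore given here as a description with no test. Tests of these 2 genes concern the 48 hpf pools, the other compounds and the change with age in those compounds. For other genes, calls in 8-MBaP at 72 hpf are given.

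The 80 libraries came from whole wild-type embryos of the 5D line, in 20 groups of 4 pools (A to D) with 6 embryos in a pool. At 72 hpf and at 48 hpf, embryos had been exposed to 8-MBaP, to 6-methylbenzo[a]pyrene (6-MBaP) or to benzo[a]pyrene (BaP), the parent polycyclic aromatic hydrocarbon without the methyl group, each at 0.133 µM, 1.33 µM and 13.3 µM, while controls received 1% DMSO, the solvent. Exposure lasted from 6 hpf by the sample labels, or 7 hpf by the study's methods, until collection. Each compound and concentration was a single plate and the control was another, so a plate and an exposure cannot be told apart and the p-values measure the spread between pools of a plate. As the study's methods describe it, pools of both ages came from these plates. A difference between plates could therefore be present at both ages. Living embryos were pooled whatever their shape, and the 4 pools with the most concentrated RNA of adequate quality were sequenced. Whole embryos hold every cell type, so fewer cells of a type and less RNA per cell cannot be told apart in any result below.

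Ponzr stands for plac8 onzin related. The PLAC8 family consists of small, cysteine-rich proteins found in animals, plants and fungi, among them mammalian PLAC8 (onzin) and the tomato fruit-size regulator fw2.2. In zebrafish the best-studied member is ponzr1, which is needed for formation of the pronephros, the embryonic kidney, whereas no role is stated here for ponzr3 or ponzr4. In the RefSeq annotation of assembly GRCz12tu they are immediate neighbours on chromosome 7, with si:dkey-112a7.5 before ponzr3 and si:dkey-165a24.9 after ponzr4. Ponzr1, ponzr5 and ponzr6 are on the same chromosome but not next to this pair, and their distances from it were not examined. The gene after ponzr5 is si:dkey-112a7.4. The build behind the counts is not given in the sources used here, so no positions are stated. The counts are of 3′ end reads, and whether near-identical copies share reads of ponzr3 and ponzr4 was not tested, which leaves the split between the 2 genes uncertain.

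Libraries held 4838752 to 8779891 counts (median 6467821). Ponzr3 had 14 to 487 reads per library (median 125) and ponzr4 had 9 to 182 (median 52.5), and neither had under 5 reads in any of the 80 libraries. Levels are given as CPM, counts scaled to a common library size after TMM normalization, and the genes are not compared with each other in level. As a check of exposure, cyp1a, the monooxygenase induced through the aryl hydrocarbon receptor, averaged 486 ± 60.9, 1191 ± 52.7 and 1247 ± 107 CPM in 8-MBaP at the 3 rising concentrations at 72 hpf, against 4.72 ± 1.08 CPM in controls (SD, n = 4 pools each). A library stood apart from the others of its group for both genes, although pool B of 1.33 µM BaP at 48 hpf came near it (43.3 and 19.7 CPM). This was pool D of the 48 hpf controls, which held 46.3 CPM of ponzr3 and 20.2 CPM of ponzr4, above every other 48 hpf pool. Its sums of marker genes of outer epidermis (20706 CPM) and pronephros (41.6 CPM) lay within those of the other 3 controls, as did its leukocyte sum. Its ionocyte sum was the highest of the 4 (37.6 CPM, against 31.6 to 32.9 CPM), as was its basal epidermis sum (163.2 CPM, against 146.1 to 162.9 CPM). Its intestine sum (156.9 CPM, against 191.4 to 245.3 CPM) and its mucous cell sum (109 CPM, against 111.4 to 189.2 CPM) were the lowest. Each 48 hpf comparison with the control is therefore given with and without it.

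At 72 hpf both genes were lowest in 8-MBaP. Ponzr3 read 5.27, 7.88, 7.56 and 7.25 CPM in pools A to D at 13.3 µM 8-MBaP, against 44.4, 31.2, 33.6 and 40.9 CPM in controls. At 1.33 µM it read 10.5, 9.19, 5.04 and 10.6 CPM, and at 0.133 µM 21.3, 18.6, 28.5 and 20.6 CPM. All 12 exposed pools lay below all 4 controls, and the pools at 1.33 and 13.3 µM lay below all 28 pools without 8-MBaP, which spanned 20.6 to 80.9 CPM. The log2 fold changes were −0.76 ± 0.20, −2.10 ± 0.22 and −2.41 ± 0.22 (± SE) from the low to the high concentration, which at 13.3 µM is 5.33-fold lower.

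Ponzr4 read 1.65, 2.73, 1.06 and 3.55 CPM at 13.3 µM 8-MBaP, against 16.5, 13.5, 15.1 and 23.6 CPM in controls. At 1.33 µM its pools read 2.83, 1.91, 1.82 and 2.65 CPM, and at 0.133 µM 5.1, 7.40, 4.55 and 8.55 CPM. Again no exposed pool reached a control, and the 8 pools at 1.33 and 13.3 µM stayed under the 4.15 CPM of the lowest of the 28 pools without 8-MBaP. The log2 fold changes were −1.43 ± 0.26, −2.91 ± 0.30 and −2.96 ± 0.30, the last 7.78-fold lower.

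These are the values that chose the genes. Among all genes tested, 0.0868%, 0.407% and 1.26% were called lower in 8-MBaP at 0.133 µM, 1.33 µM and 13.3 µM at 72 hpf. Of the 230 genes called lower at 13.3 µM that averaged at least 20 reads in controls, ponzr4 had the 3rd largest fall and ponzr3 the 7th. The genes next to them in that order were slc12a10.2 (−3.35 on the log2 scale), the Na-Cl cotransporter of ionocytes, and he1.1 (−2.73), a hatching enzyme, around ponzr4, and krt15 (−2.50), a keratin, and lgals3bp.1 (−2.29) around ponzr3.

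**Figure D1:**
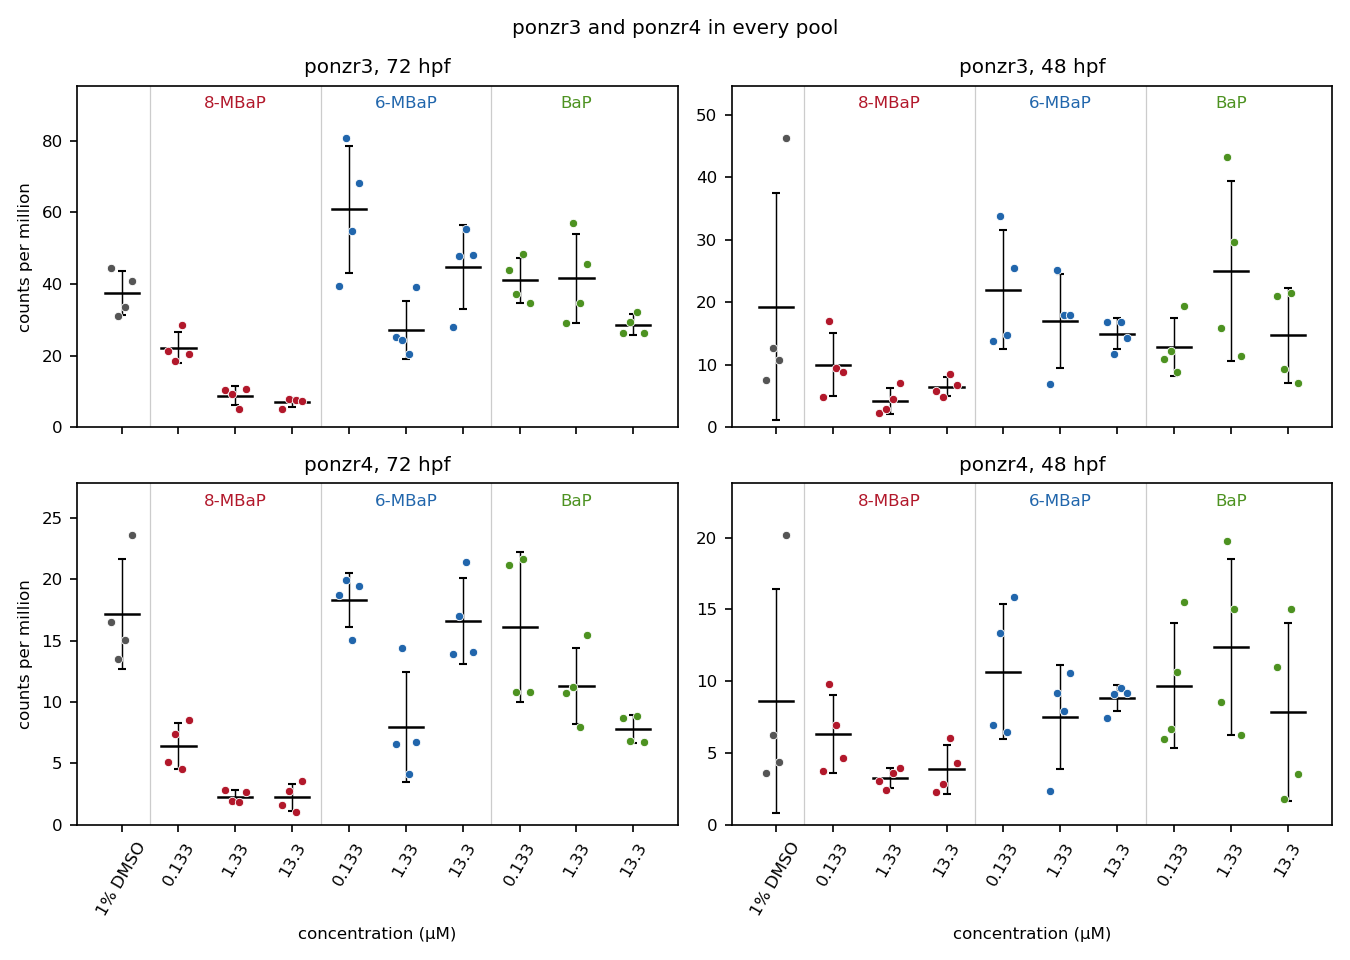
CPM of ponzr3 (top) and ponzr4 (bottom) in every pool at 72 hpf (left) and 48 hpf (right), by concentration in µM from the solvent control upward within each compound. Points are pools, lines are means and bars are SD over 4 pools. At 72 hpf the 8-MBaP pools at 1.33 and 13.3 µM lie below every pool without 8-MBaP, and at 48 hpf pool D of the controls (46.3 and 20.2 CPM) lies far above the other 3.

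At 48 hpf, in other pools from the same plates, ponzr3 was lower in 8-MBaP too, while its control pools were spread widely. It read 2.27, 3.00, 4.59 and 7.03 CPM at 1.33 µM 8-MBaP, against 7.56, 12.7, 10.8 and 46.3 CPM in controls, and was called 4.51-fold lower (log2 −2.17 ± 0.42, adjusted p = 0.0012). At 13.3 µM it read 5.88, 4.88, 8.48 and 6.86 CPM and was called 2.94-fold lower (log2 −1.56 ± 0.40, adjusted p = 0.021). All 4 pools at 1.33 µM lay below all controls, whereas pool C at 13.3 µM overlapped them. At 0.133 µM ponzr3 read 4.78, 17.0, 9.54 and 8.85 CPM, which overlapped the controls and was not called (log2 −0.94 ± 0.37, adjusted p = 0.38). With 1 library left out at a time, control pool D among them, this difference ran from −1.33 to −0.05 and was never called. Of all genes tested, 0.242%, 0.275% and 0.77% were called lower in 8-MBaP at 0.133 µM, 1.33 µM and 13.3 µM at 48 hpf, so ponzr3 was in a small share of genes at the upper 2 concentrations.

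Both calls of ponzr3 rested on the control pool that stood apart. Without it the controls averaged 10.3 ± 2.59 CPM (SD, n = 3), against 19.3 ± 18.1 CPM with it (n = 4). The log2 fold changes without it were −1.28 at 1.33 µM and −0.67 at 13.3 µM, with adjusted p of 0.19 and 0.53, neither of them called. The call at 13.3 µM was also lost without pool A, B or D of that exposure, at adjusted p = 0.059, 0.077 and 0.057, whereas leaving out any library but control pool D kept the call at 1.33 µM.

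Ponzr4 was not called in 8-MBaP at 48 hpf. It read 3.08, 2.40, 3.61 and 3.94 CPM at 1.33 µM and 2.29, 2.83, 6.04 and 4.28 CPM at 13.3 µM, against 3.59, 6.26, 4.35 and 20.2 CPM in controls. Both exposures overlapped the lower controls (log2 −1.39 ± 0.45 with adjusted p = 0.20, and −1.13 ± 0.44 with adjusted p = 0.23). With 1 library left out at a time, control pool D among them, neither was ever called. The differences then ran from −1.64 to −0.54 at 1.33 µM and from −1.44 to −0.29 at 13.3 µM. At 0.133 µM it read 3.75, 9.82, 6.98 and 4.64 CPM (log2 −0.45 ± 0.41, adjusted p = 0.82), and without control pool D this difference had the opposite sign (log2 0.40, adjusted p = 0.84).

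Set against all 28 pools without 8-MBaP at 48 hpf, 6 of the 8 pools of ponzr3 at 1.33 and 13.3 µM lay below the lowest of them. The 8 spanned 2.27 to 8.48 CPM, against 6.98 to 46.3 CPM in the 28. For ponzr4 none of the 8 did so (2.29 to 6.04 CPM, against 1.83 to 20.2 CPM), since pool B of 13.3 µM BaP held the lowest value of the time point. No step between concentrations of 8-MBaP passed the test at 48 hpf: of 6 over both genes none was called by edgeR or DESeq2 (log2 −1.23 to 0.62), although 2 had an unadjusted p under 0.05. Of all genes, 0.0899% changed from 0.133 to 1.33 µM, 0.0225% from 1.33 to 13.3 µM and 0.236% from 0.133 to 13.3 µM.

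**Figure D2:**
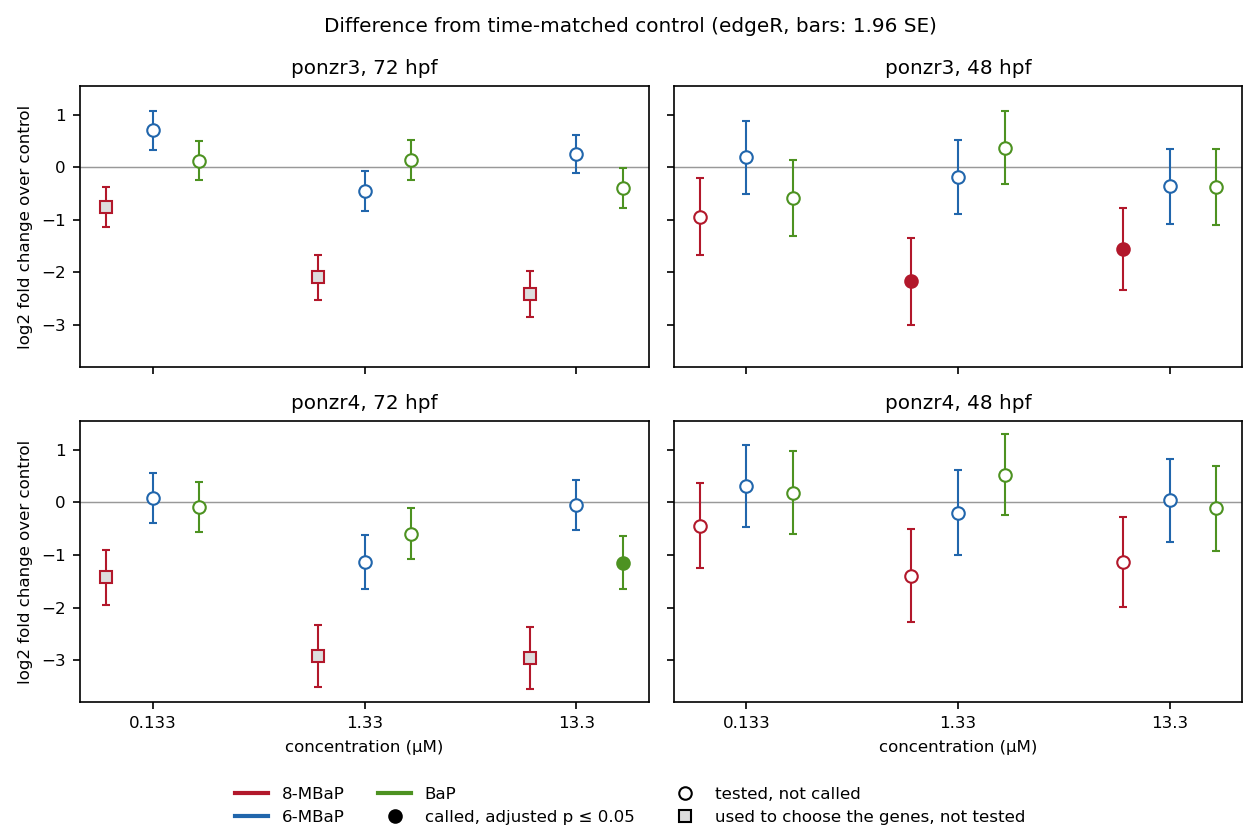
Log2 fold change of ponzr3 (top) and ponzr4 (bottom) over the control of the same age by concentration (µM), at 72 hpf (left) and 48 hpf (right), with bars of 95% intervals. Filled circles were called at an adjusted p of 0.05 or under, open circles were not, and grey squares are the contrasts used to choose the genes. At 48 hpf the called values are ponzr3 in 8-MBaP at 1.33 and 13.3 µM (−2.17 and −1.56), and at 72 hpf the called value is ponzr4 in BaP at 13.3 µM (−1.15).

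8-MBaP and 6-MBaP differ only in which carbon of the ring system carries the methyl group, and BaP has none. At matched concentration, 24 pairs of compounds over the 2 genes were tested (12 per gene), of which 3 were called, all of them 8-MBaP at 1.33 µM and 48 hpf. Ponzr3 was 5.85-fold lower in 8-MBaP than in BaP (2.27 to 7.03 CPM, against 15.9, 43.3, 29.6 and 11.5 CPM, log2 −2.55 ± 0.41, adjusted p = 4.5e-05). It was 3.98-fold lower than in 6-MBaP (6.98, 25.1, 18.0 and 18.0 CPM in 6-MBaP, log2 −1.99 ± 0.42, adjusted p = 0.0045). Ponzr4 was 3.79-fold lower than in BaP (2.40 to 3.94 CPM, against 8.53, 19.7, 15 and 6.25 CPM, log2 −1.92 ± 0.44, adjusted p = 0.015). In the pairs with BaP no pool of the compounds overlapped. These pairs set the lowest of the 10 group means at 48 hpf (1.33 µM 8-MBaP) against the highest (1.33 µM BaP) for both genes. The BaP means were 25.0 ± 14.4 CPM for ponzr3 and 12.4 ± 6.15 CPM for ponzr4, against 19.3 ± 18.1 and 8.59 ± 7.80 CPM in controls.

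The first of these calls held whichever library of the pair was left out (log2 −2.93 to −2.16, adjusted p at most 0.0022). The call against 6-MBaP was lost without pool B of 6-MBaP (log2 −1.74, adjusted p = 0.061), while that of ponzr4 over BaP was lost in 4 of the 8 fits that left out a library. These were the fits without pool A or B of 8-MBaP (adjusted p = 0.068 and 0.098) and without pool B or C of BaP (adjusted p = 0.17 and 0.076). The control pools are no part of these differences but entered the estimate of the spread, and all 3 pairs were also called when only the groups compared were fitted. At 1.33 µM, 0.157% of genes were called lower in 8-MBaP than in BaP and 0.157% lower than in 6-MBaP, against 0.197% and 0.0506% at 0.133 µM and 0.36% and 0.32% at 13.3 µM.

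At 13.3 µM and 48 hpf the pairs with 8-MBaP were not called, but their 95% intervals (normal approximation) did not reach 0. Ponzr3 differed by log2 −1.18 ± 0.40 from BaP (adjusted p = 0.19) and by −1.19 ± 0.40 from 6-MBaP (adjusted p = 0.23). Ponzr4 differed by −1.02 from BaP (interval −1.88 to −0.16) and by −1.17 from 6-MBaP (interval −2.02 to −0.33). With p adjusted over the 12 pairs of a gene in place of all genes, 9 pairs of ponzr3 and 4 of ponzr4 were at or under 0.05, which is not independent support since the genes were picked with results known.

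For the same pairs at 72 hpf, as a description, ponzr3 was lower in 8-MBaP than in BaP by log2 −0.89, −2.24 and −2.02 from the low to the high concentration, and lower than in 6-MBaP by −1.46, −1.65 and −2.67. Ponzr4 was lower than in BaP by −1.34, −2.32 and −1.81 and lower than in 6-MBaP by −1.52, −1.78 and −2.91. Each of these 12 differences had the same sign.

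In 6-MBaP and BaP neither gene was called against the controls at 48 hpf. None of 12 comparisons was called by edgeR or DESeq2, none had an unadjusted p under 0.05, and the log2 fold changes ran from −0.59 to 0.53 with SE of 0.35 to 0.41. With 1 library left out at a time, control pool D among them, none was called by edgeR (adjusted p at least 0.17). The log2 fold changes then ran from −0.86 to 1.38 and some changed sign. Ponzr3 in 1.33 µM BaP ran from −0.01 to 1.27, so these differences are loosely set. Of all genes, 0%, 0% and 0.253% were called in 6-MBaP and 0.0112%, 0.0843% and 0.343% in BaP at the 3 rising concentrations. Ponzr3 averaged 22.0 ± 9.53, 17.0 ± 7.48 and 15 ± 2.48 CPM in 6-MBaP and 12.8 ± 4.60, 25.0 ± 14.4 and 14.8 ± 7.61 CPM in BaP (SD, n = 4 pools each). Ponzr4 averaged 10.7 ± 4.70, 7.50 ± 3.62 and 8.83 ± 0.936 CPM in 6-MBaP and 9.70 ± 4.37, 12.4 ± 6.15 and 7.84 ± 6.21 CPM in BaP, against 8.59 ± 7.80 CPM in controls.

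At 72 hpf, where these tests share the controls that chose the genes, 1 of 12 comparisons was called. Ponzr4 read 8.66, 6.78, 8.89 and 6.78 CPM in 13.3 µM BaP, against 16.5, 13.5, 15.1 and 23.6 CPM in controls, with no overlap, and was 2.21-fold lower (log2 −1.15 ± 0.26, adjusted p = 0.010). The call was lost without control pool D (log2 −0.95, adjusted p = 0.089) and without pool B of BaP (adjusted p = 0.052). Ponzr3 in the same pools read 26.2, 29.5, 32.3 and 26.4 CPM, which overlapped its controls (log2 −0.39 ± 0.19, adjusted p = 0.48). In 13.3 µM BaP 0.809% of all genes were called, and 0.434% of all genes were called lower. At 0.133 and 1.33 µM BaP 0.0109% and 0.13% were called.

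In 6-MBaP at 72 hpf neither gene was called at any concentration, where 0.00543%, 0.00543% and 0.038% of all genes were. Ponzr4 read 6.55, 14.4, 4.15 and 6.73 CPM at 1.33 µM, so that 3 of 4 pools lay below all controls and pool B among them (log2 −1.13 ± 0.26, adjusted p = 0.26). Without pool B it was called (log2 −1.56, adjusted p = 0.0047). At 0.133 and 13.3 µM the means of ponzr4 were 18.3 ± 2.19 and 16.6 ± 3.48 CPM, against 17.2 ± 4.46 CPM in controls, so the values did not follow concentration. The mean of ponzr3 was also lowest at 1.33 µM, with 60.8 ± 17.8, 27.3 ± 8.1 and 44.8 ± 11.7 CPM from the low to the high concentration, against 37.5 ± 6.18 CPM in controls. Its highest log2 fold change was 0.70 ± 0.19 at 0.133 µM (adjusted p = 0.24).

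Between 6-MBaP and BaP none of 12 comparisons at both ages was called by edgeR or DESeq2 (log2 −0.72 to 1.1), though 6 had an unadjusted p under 0.05. Nearest to the threshold was ponzr4 at 13.3 µM and 72 hpf, with 13.9, 17.0, 21.4 and 14.1 CPM in 6-MBaP, against 8.66, 6.78, 8.89 and 6.78 CPM in BaP (log2 1.1 ± 0.26, adjusted p = 0.058). The pools of these 2 compounds did not overlap there. Of all genes, 0.174%, 0.0543% and 0.114% were called between these compounds at 72 hpf and 0.0169%, 0.0337% and 0.197% at 48 hpf, from the low to the high concentration.

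Ordered by mean at 72 hpf, ponzr3 ran upward from 8-MBaP at 13.3, 1.33 and 0.133 µM through 6-MBaP at 1.33 µM, BaP at 13.3 µM, the control, BaP at 0.133 and 1.33 µM and 6-MBaP at 13.3 µM to 6-MBaP at 0.133 µM. Ponzr4 ran from 8-MBaP in the same order through BaP at 13.3 µM, 6-MBaP at 1.33 µM, BaP at 1.33 and 0.133 µM, 6-MBaP at 13.3 µM and the control to 6-MBaP at 0.133 µM. For both genes the single gap between neighbours whose pools did not overlap was that between 1.33 and 0.133 µM 8-MBaP. At 48 hpf 8-MBaP also took the 3 lowest places for both genes, at 1.33, 13.3 and 0.133 µM, and BaP at 1.33 µM the highest, but no neighbours were free of overlap.

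Levels of cyp1a are set beside those of both genes as a description, and a link between them was not tested. BaP averaged 28.1 ± 3.65, 142 ± 34.7 and 292 ± 38.6 CPM of cyp1a at the 3 rising concentrations, beside ponzr4 at 16.1 ± 6.12, 11.3 ± 3.09 and 7.78 ± 1.15 CPM. Ponzr3 in the same BaP groups did not fall step by step, at 41.0 ± 6.26, 41.6 ± 12.4 and 28.6 ± 2.89 CPM. In 0.133 µM 8-MBaP, among the exposures that chose the genes, the values were 486 ± 60.9 CPM of cyp1a and 6.4 ± 1.90 CPM of ponzr4. In 1.33 µM 6-MBaP, in contrast, ponzr4 was at 7.95 ± 4.45 CPM with cyp1a at 11.5 ± 2.33 CPM. At 48 hpf 8-MBaP had the highest means of cyp1a (345, 771 and 885 CPM from the low to the high concentration) and the lowest of both genes. The highest means of ponzr3 and ponzr4 at 48 hpf (25.0 ± 14.4 and 12.4 ± 6.15 CPM) were in 1.33 µM BaP, where cyp1a was at 93.2 ± 21.9 CPM, against 5.01 ± 0.68 CPM in controls.

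With age ponzr3 rose in most exposures outside 8-MBaP, and no change of ponzr4 was called. Of 12 comparisons of 72 with 48 hpf in 6-MBaP and BaP, 4 were called, all of them ponzr3. In 0.133 µM BaP ponzr3 read 43.8, 37.1, 48.4 and 34.7 CPM at 72 hpf, against 10.9, 12.3, 8.80 and 19.4 CPM at 48 hpf (log2 1.66 ± 0.32, adjusted p = 2.1e-05). It also rose in 6-MBaP at 0.133 µM (log2 1.44 ± 0.31, adjusted p = 9.7e-05) and 13.3 µM (1.55 ± 0.31, adjusted p = 4.4e-05) and in 13.3 µM BaP (0.91 ± 0.32, adjusted p = 0.027), the last not called without pools B (adjusted p = 0.14) or without pools D (adjusted p = 0.096). In the 8 comparisons not called the log2 changes ran from −0.14 to 0.88, and 4 of these were called with pools of 1 letter left out: ponzr3 in 1.33 µM 6-MBaP and BaP without pools B (adjusted p = 0.044 and 0.049), and ponzr4 in 13.3 µM 6-MBaP and 0.133 µM BaP without pools D (adjusted p = 0.045 and 0.015).

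A rise with age was common in these libraries: 13.1%, 13.5% and 13.4% of genes were called higher at 72 hpf in 6-MBaP and 13.6%, 13% and 13.2% in BaP from the low to the high concentration. Ponzr4 changed by log2 0.75, 0.05 and 0.88 in 6-MBaP and by 0.71, −0.14 and −0.07 in BaP, none called. As a description, the change in controls was 0.93 ± 0.31 for ponzr3 and 0.98 ± 0.36 for ponzr4, and without pools D that of ponzr3 was 1.77. In 8-MBaP it was 1.1, 1.01 and 0.07 for ponzr3 and 0.00, −0.55 and −0.85 for ponzr4 as concentration increased.

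The 2 genes varied together from pool to pool at 48 hpf. Over the 40 libraries of that age, Pearson's r of their log2 CPM was 0.873, and ponzr4 was the gene nearest to ponzr3 by this measure among 17794 genes. At 72 hpf r was 0.906, which holds the 12 pools of 8-MBaP whose low values chose both genes. Over the other 28 pools r was 0.685, and ponzr4 was again nearest to ponzr3 among 18423 genes. These points share exposures, libraries and perhaps reads of similar copies. After each group's mean was subtracted, r was 0.305 at 72 hpf and 0.860 at 48 hpf, so at 48 hpf the genes also moved together between pools of 1 plate, control pool D included. For the other family members the r of their deviations with those of ponzr3 lay between −0.32 (ponzr5) and 0.29 (PLAC8L1) at 48 hpf. At 72 hpf it lay between −0.13 (ponzr2) and 0.43 (PLAC8L1), and that of PLAC8L1 was above that of ponzr4. PLAC8L1 had only 37 reads over all libraries at 72 hpf and 89 at 48 hpf. It reached 5 reads in 2 and 6 libraries, so its r is of values near the floor.

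**Figure D3:**
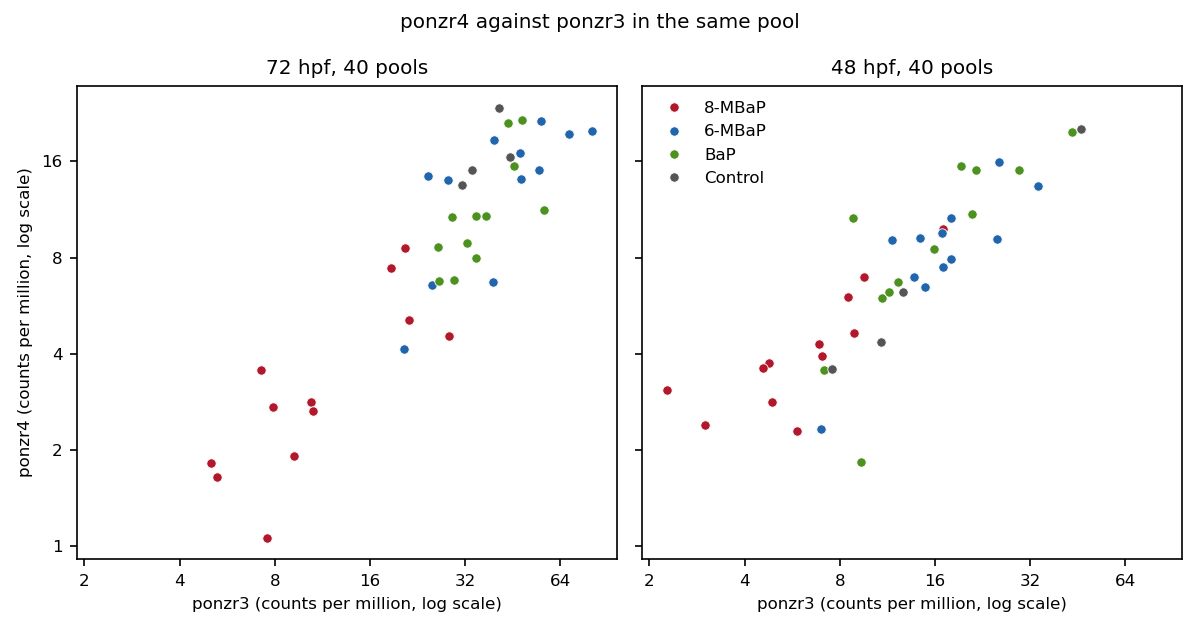
CPM of ponzr4 against ponzr3 in the same pool at 72 hpf (left) and 48 hpf (right), both axes on a log scale, with 40 pools in each panel coloured by compound. At 72 hpf 8 of the 8-MBaP pools form the low corner apart from the rest. At 48 hpf the pools form a single band with control pool D at the top. The 8-MBaP pools at 1.33 and 13.3 µM lie towards its low end, where pools without 8-MBaP overlap them, and those at 0.133 µM lie among the others.

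The spread between pools was large for genes of this level. The biological coefficient of variation, the spread between pools beyond counting error, was 18.5% for ponzr3 and 22.8% for ponzr4 at 72 hpf. At 48 hpf it was 35.2% for ponzr3 and 37.9% for ponzr4. Genes within 0.5 log2 CPM of ponzr3 had a median of 12.1% at 72 hpf and 14.5% at 48 hpf, and 97.4% and 99.9% of them lay below it. For ponzr4 the medians were 17.0% and 18.4%, with 95.4% and 99.9% below it. In pools of 6 embryos the SE of a log2 difference of 6-MBaP or BaP from control was accordingly about 0.19 to 0.26 at 72 hpf but 0.35 to 0.41 at 48 hpf. At 48 hpf it was 0.37 to 0.45 for 8-MBaP over control and 0.41 to 0.48 for steps between 8-MBaP concentrations.

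The rest of the family, a list made with earlier results of these data known, was not called in any exposure. Besides ponzr3 and ponzr4, 7 members passed the filter on low counts at 72 hpf and 6 at 48 hpf: ponzr1, ponzr2, ponzr5, ponzr6, PLAC8 (ENSDARG00000043729), PLAC8L1 and, at 72 hpf only, cnfn (cornifelin), which is known from the cornified skin of mammals. Over all exposures and both ages edgeR called none of their 117 comparisons with the control (lowest adjusted p = 0.38), nor did DESeq2, and 5 had an unadjusted p under 0.05. Few genes were called at all. In 13.3 µM 8-MBaP 1.26% of all genes were lower and 1.21% higher at 72 hpf, and 0.77% each at 48 hpf. In 6-MBaP and BaP 0% to 0.809% were called. No call among so few members is near those shares and does not set the family apart. In 13.3 µM 8-MBaP the kidney gene ponzr1 differed from control by log2 0.38 ± 0.18 at 72 hpf and 0.24 at 48 hpf. The other members on chromosome 7 differed by −0.30 and 0.38 (ponzr5) and by 0.43 and −1.09 (ponzr6) at 72 and 48 hpf. Ponzr2 differed by −0.05 and −0.20, PLAC8 by −0.17 and −0.86, and PLAC8L1, which had 37 and 89 reads in all, by 0.81 and −0.61. Cnfn differed by −0.05 at 72 hpf. The median over these members was −0.05 at 72 hpf and −0.40 at 48 hpf, or −0.05 and −0.74 with ponzr3 and ponzr4, against −0.0044 and 0.0016 over all genes. Not tested because of low counts were ponzr10 (21 reads at 72 hpf and 0 at 48 hpf), a further ID named PLAC8 (ENSDARG00000094438, 5 reads and 0) and cnfn at 48 hpf (33 reads).

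**Figure D4:**
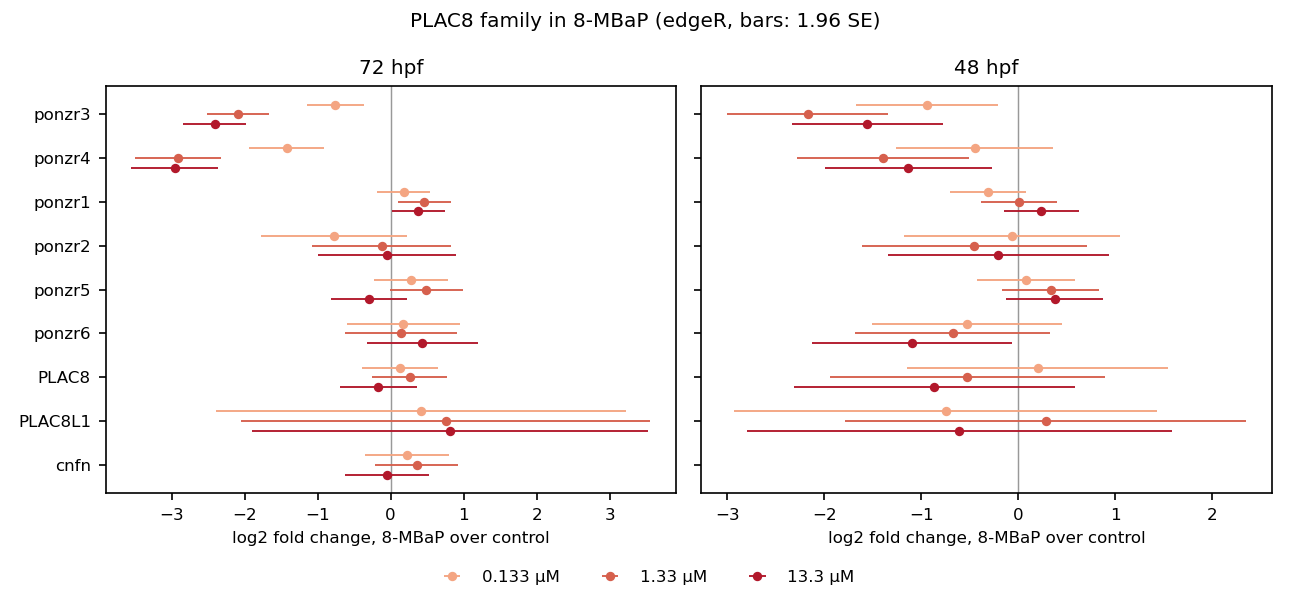
Log2 fold change of 8-MBaP over control for 9 PLAC8 family genes at 72 hpf (left) and 48 hpf (right), at 0.133 µM, 1.33 µM and 13.3 µM, with bars of 95% intervals. Ponzr3 and ponzr4 at 72 hpf were chosen by these values (−2.41 and −2.96 at 13.3 µM). None of the other 7 genes was called, 4 of 7 at 72 hpf and 4 of 6 at 48 hpf lie below 0 at 13.3 µM, and bars are wide where counts were few, as for PLAC8L1. Of all genes, 1.26% were called lower at 13.3 µM at 72 hpf and 0.77% at 48 hpf.

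The genes whose levels were most like those of both genes over the 40 libraries at 72 hpf, among 11341 with at least 20 reads on average, were krt4 (mean r 0.859), a keratin of the outer epidermis, cyt1l (0.845), si:dkey-65b12.6 (0.831), slc12a10.2 (0.823), krt1-19e (0.809), si:ch211-209m20.7 (0.804), ca15a (0.797), a carbonic anhydrase of ionocytes, and and2 (0.797), a protein of the actinotrichia that stiffen the fin fold. All 8 had lower levels in 13.3 µM 8-MBaP at 72 hpf, from −1.07 for and2 to −3.35 for slc12a10.2 on the log2 scale. At 48 hpf their r with ponzr3 was 0.28 to 0.67. Over the 28 pools without 8-MBaP at 72 hpf their r with ponzr3 was between −0.03 (krt1-19e) and 0.55 (cyt1l). With ponzr4 it was between −0.07 (slc12a10.2) and 0.53 (and2), with 0.46 for krt4, 0.49 for cyt1l and 0.52 for si:dkey-65b12.6. All 8 had a lower r with both genes than over the 40 libraries, so much of the likeness rested on the 8-MBaP pools that chose the genes. A moderate likeness to ponzr4 remained for some of the 8.

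Some markers of the outer epidermis were lower in 8-MBaP as well. Of 15 tested, 5 were called lower, 1 higher and 9 not called in 13.3 µM 8-MBaP at 72 hpf, and 6 were called lower and 9 not called at 48 hpf, also 6 without control pool D. Of all genes 1.26% were lower and 1.21% higher at 72 hpf and 0.77% each at 48 hpf. Their median log2 fold change was −0.21 at 72 hpf and −0.38 at 48 hpf, against −0.0044 and 0.0016 for all genes. Their summed level was 8057 to 8598 CPM in 13.3 µM 8-MBaP and 16526 to 17273 CPM in controls at 72 hpf, and 11874 to 13671 CPM, against 19471 to 20835 CPM, at 48 hpf. The keratins krt4 (log2 −1.33 ± 0.08) and cyt1 (−1.13 ± 0.10) led that sum at 72 hpf.

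Of 7 ionocyte markers, 3 were called lower in 13.3 µM 8-MBaP at 72 hpf (ca15a, foxi3a and slc12a10.2), or 2 without pool D of the 72 hpf controls. At 48 hpf 3 were called lower, or 2 without pool D of the 48 hpf controls. The ionocyte sum was 12.3 to 15.6 CPM, against 34.5 to 45.7 CPM in controls, at 72 hpf, and 12.1 to 18.1 CPM, against 31.6 to 37.6 CPM, at 48 hpf. In 13.3 µM 8-MBaP 1.26% of all genes were called lower and 1.21% higher at 72 hpf, and 0.77% each at 48 hpf. The lists are short and were chosen with earlier results of these data known. None was tested as a set, so the counts in them are a description only. Of 6 pronephros markers none was lower and 1, CDH17, was higher at 72 hpf, with sums of 58.1 to 63.7 CPM in 13.3 µM 8-MBaP and 43.9 to 55.6 CPM in controls. At the same concentration and age 1 of 6 basal epidermis markers was called lower, or none without pool D of the 72 hpf controls. Of the others 1 of 5 intestine markers was higher, 1 of 3 mucous cell markers lower and none of 5 leukocyte markers called, or 1 lower without that pool. At 48 hpf, in 13.3 µM 8-MBaP, 1 of 6 basal epidermis markers (none without control pool D), 1 of 3 mucous cell markers and 1 of 5 leukocyte markers were called lower, and no intestine or pronephros marker. The mucous cell markers did not fall together: muc5.1 was called lower (log2 −1.04), muc5.2 was higher but not called (0.94, adjusted p = 0.054) and AGR2 differed by 0.002. At 1.33 µM and 48 hpf muc5.2 was called higher (log2 1.12, adjusted p = 0.017). At 72 hpf and 13.3 µM these 3 differed by −0.95, 0.51 and 0.03. Their sum at 13.3 µM and 48 hpf was 113.1 to 149.1 CPM, within the 109 to 189.2 CPM of controls. The leukocyte marker called lower was lyz, a lysozyme gene of myeloid cells (log2 −1.04 ± 0.13, adjusted p = 2e-08). The leukocyte sum was 61.2 to 88.7 CPM, against 100.8 to 165.1 CPM in controls, without overlap. Other markers in that sum were not called: CORO1A differed by log2 −0.06, LCP1 by −0.17 and marco by −1.05 (adjusted p = 0.95, 0.88 and 0.45). The sum is therefore no measure of leukocytes in general. Of the markers tested, none had 0 reads in every pool of a control or 8-MBaP group. Which cells of the embryo express ponzr3 and ponzr4 is not measured here, and the part of these cell types in their levels was not tested.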

How the data were processed

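The authors deposited raw counts per gene, without normalization, from multiplexed 3′ RNA sequencing (BRB-seq) that a company mapped and demultiplexed; the aligner, build and annotation are not given in the sources used here. All 80 columns were matched to samples by name. Members and gene lists were chosen with earlier results of these data known. Genes that reached 5 reads in 2 or more libraries were fitted in edgeR 4.0.16 under R 4.3.3 (TMM, quasi-likelihood F test), the 10 groups of an age together (18423 genes at 72 hpf, 17794 at 48 hpf). All 80 libraries entered the fit for 72 over 48 hpf (19211 genes). Calls were made where the Benjamini-Hochberg adjusted p, over all genes of a comparison, did not exceed 0.05. The SE is the log2 fold change over the root of F. The fit was also run on simulated counts, the outcome of which is not given here and is not used as support. Alternatives were DESeq2 1.42.0, RLE size factors, library totals without TMM, no filter on low counts, filterByExpr, only the groups compared, the pool letter as a block, and each library left out.

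Named genes were ponzr3, ponzr4, family members that passed the filter, cyp1a, the 8 genes most like both at 72 hpf (Pearson's r of log2 CPM, prior count 2), and up to 4 members of each other list by count in controls; foxi3a was named after its values were seen, to account for a count. Lists were the PLAC8 family and markers of outer and basal epidermis, pronephros, intestine, ionocytes, mucous cells and leukocytes. A list of genes of the aryl hydrocarbon receptor response was also counted, and of it only cyp1a is reported here. Names came from a table of gene names, in which some symbols are those of the human counterpart, cyp1a among them. A planned description of promoters and proteins was not run, as no sequence was used here.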

Additional observations from a re-analysis of the deposited data

Results flagged for a closer look

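In the 48 hpf controls, pool D lay far from the other 3 pools for both genes. For ponzr3 the gap between pool D (46.3 CPM) and the next pool (12.7 CPM) was 0.868 of the whole range of the group, and for ponzr4 (20.2 and 6.26 CPM) it was 0.839, both above Dixon's 95% critical value for 4 samples. The 20 groups were checked for both genes, 40 checks in all, and chance alone flags about 1 in 20. No other group passed the limit. The 2 flags are of the same library, and the genes varied together between pools at 48 hpf, so they are not independent of each other. The source of the high values in this pool was not tested.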

How the results depend on the processing

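With DESeq2, 3 calls were lost: ponzr3 in 13.3 µM 8-MBaP over control at 48 hpf (log2 −1.57, adjusted p = 0.060), ponzr3 at 72 over 48 hpf in 13.3 µM BaP (0.95, adjusted p = 0.055) and ponzr4 in 8-MBaP over BaP at 1.33 µM and 48 hpf (−1.93, adjusted p = 0.0815), which left 1 call of 8-MBaP over control at 48 hpf, against 2 by edgeR. Dropping the filter on low counts changes the genes tested and those that enter the estimate of the spread. By the edgeR F test, ponzr3 in 0.133 µM 8-MBaP over control at 48 hpf then had an adjusted p of 1.2e-04. That is under its unadjusted p of 0.015 with the filter, so calls gained this way are no added support. Without the filter, differences were nearly the same size but more were called. At 48 hpf these were 5 over control in 8-MBaP (new: ponzr3 at 0.133 µM, −0.93, and ponzr4 at 1.33 and 13.3 µM, −1.39 and −1.13), 9 of 8-MBaP over BaP or 6-MBaP (new: ponzr3 at 0.133 µM over 6-MBaP, −1.13, and at 13.3 µM, −1.18 over BaP and −1.19 over 6-MBaP; ponzr4 at 1.33 µM over 6-MBaP, −1.20, and at 13.3 µM, −1.02 over BaP and −1.17 over 6-MBaP) and 1 step of 8-MBaP concentration (ponzr3, −1.23). Also called were 3 of 6-MBaP and BaP over control at 72 hpf (new: ponzr4 in 1.33 µM 6-MBaP, −1.13, and ponzr3 in 0.133 µM 6-MBaP, 0.70), 5 of 6-MBaP over BaP (4 of ponzr3, and ponzr4 at 13.3 µM and 72 hpf, 1.1) and 9 of 72 over 48 hpf. With only the groups compared in the fit, 7 of 8-MBaP over BaP or 6-MBaP were called (new: ponzr3 at 0.133 µM over 6-MBaP, −1.13, and at 13.3 µM, −1.17 over BaP and −1.19 over 6-MBaP; ponzr4 at 13.3 µM over 6-MBaP, −1.17), 1 of 6-MBaP over BaP (ponzr4 at 13.3 µM and 72 hpf, 1.09) and 9 of 72 over 48 hpf. RLE size factors and filterByExpr changed no call, and library totals without TMM added 1.

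Leaving out 1 library at a time gave these ranges of log2 fold change. Over control at 48 hpf, ponzr3 ran from −2.56 to −1.28 in 1.33 µM and from −1.82 to −0.67 in 13.3 µM 8-MBaP, and ponzr4 from −0.75 to 0.40 in 0.133 µM 8-MBaP, in each case the value nearest or past 0 being that without control pool D. Calls of 8-MBaP over control at 48 hpf ran from 0 to 2. At 1.33 µM and 48 hpf ponzr3 ran from −2.37 to −1.74 over 6-MBaP and ponzr4 from −2.13 to −1.62 over BaP. At 72 hpf ponzr4 ran from −1.56 to −0.92 in 1.33 µM 6-MBaP and from −1.25 to −0.95 in 13.3 µM BaP over control, with 0 to 2 calls of 6-MBaP and BaP. At 72 over 48 hpf ponzr3 ran from 0.72 to 1.18 in 13.3 µM BaP and from 0.58 to 1.77 in controls.

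Pools with the same letter did not deviate together (mean r 0.0007 at 72 hpf and 0.0011 at 48 hpf over genes with at least 20 reads on average). Of 40 libraries at each age, 8 and 13 were nearest to their own letter among the 4, so the letters do not pair the samples. With the letter as a replicate block, ponzr3 in 8-MBaP over control at 48 hpf was at −2.13 and −1.48 for 1.33 and 13.3 µM and still called, and 5 in place of 4 changes with age were called. Few reads of ponzr4 (9 to 182) and the spread between pools at 48 hpf limit these comparisons.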

Other observations

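Within a library, the log2 ratio of ponzr4 to ponzr3 counts (0.5 added to each) ran from −2.76 to −0.76 at 72 hpf (median −1.65, 40 libraries) and from −2.29 to 0.43 at 48 hpf (median −0.87, 40 libraries). The controls averaged −1.14 ± 0.26 at 72 hpf and −1.14 ± 0.13 at 48 hpf (SD, n = 4 pools each), pool D of the 48 hpf controls included. Outside 8-MBaP at 72 hpf, 15 exposures were compared with their controls by an exact two-sided permutation test, for which 0.0286 is the smallest p that 4 against 4 pools can give. This p was reached in 8-MBaP at 0.133 and 1.33 µM at 48 hpf (ratio higher by 0.51 and 0.87), in 0.133 µM BaP at 48 hpf (higher by 0.70) and in BaP at 1.33 and 13.3 µM at 72 hpf (differences of −0.71 and −0.73). None passed the Benjamini-Hochberg adjustment over the 15 tests (lowest 0.086). The ratio was examined after the levels had been seen.

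The genes whose deviations from their group means at 48 hpf were most like those of ponzr3 and ponzr4, chosen after their values were seen, were si:ch73-52f24.4 (mean r 0.678 over 40 libraries), KLF3 (0.633), a transcription factor of the Krüppel-like family, and NR4A1 (0.619), an immediate-early nuclear receptor. In the 48 hpf controls si:ch73-52f24.4 read 79.1, 109, 98.6 and 131 CPM in pools A to D and KLF3 19.3, 22.4, 24.7 and 43.4 CPM, both highest in pool D, while NR4A1 read 12.1, 17.5, 12.7 and 16.7 CPM, highest in pool B.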
